A study of Mus musculus with 2 samples.

Results

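Interferon gamma (Ifng) and the 4 chains that make up the interferon receptors (Ifngr1, Ifngr2, Ifnar1 and Ifnar2) were followed across immune cell classes in 2 single-cell libraries of mouse mammary tumours. These 5 genes were taken by name from the 31017 gene symbols of the data, and all 5 were present in both libraries. Their levels were given in every class with at least 50 cells, and smaller classes were named where they carried a result. The tumours of each library grew from cells of 1 tumour line, PyMT-M or PyMT-N, placed in the mammary gland of mice, and were collected after 4 weeks at a diameter between 0.7 and 1 cm. The labels name no other treatment or genotype, and they do not give the strain or age of the host mice, what M and N stand for, or how many tumours or mice went into each library. Viable cells were sorted on CD45, which marks leukocytes, and their transcripts were read singly from the 5′ end. There was 1 library per line, so no difference between the lines could be tested against biological spread. Every interval given here is a 95% interval for counting error only, and it covers neither mouse-to-mouse variation nor differences in handling.

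Interferon gamma is the type II interferon, a cytokine released mainly by activated T cells and natural killer (NK) cells. It binds a receptor of 2 different chains: Ifngr1 carries the main ligand-binding surface and Ifngr2 is the partner chain that completes the signalling receptor, and they signal through the kinases Jak1 and Jak2. The type I interferons, the alpha family and interferon beta, use another receptor made of Ifnar1 and Ifnar2, which works through Tyk2 and Jak1. Both chains of a receptor are needed for a full signal, and T cells are known to limit their response to interferon gamma by keeping Ifngr2 low.

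The 5 genes lie in 3 places of the mouse genome (build GRCm38, which is mm10), all of them protein coding and on the plus strand. Ifng spans chr10:118441046-118445892 and Ifngr1 spans chr10:19591949-19610229, with 98.83 Mb between them. The other 3 sit together within 192.841 kb: Ifnar2 at chr16:91372783-91405589, Ifnar1 at chr16:91485238-91507441 and Ifngr2 at chr16:91547072-91565623. The annotated model Gm21970 overlaps Ifnar2. How reads in the overlap were counted was not tested, so the Ifnar2 values carry that uncertainty. The 250 bases before the start of 3 genes are shown because the cytokine and the chains of its receptor differed in how widely they were detected. They come from RefSeq (GRCm38.p6), run 5′ to 3′ on the plus strand, and carry CG dinucleotides and the TATAAA motif in capitals.
Ifng, chr10:118440796-118441045: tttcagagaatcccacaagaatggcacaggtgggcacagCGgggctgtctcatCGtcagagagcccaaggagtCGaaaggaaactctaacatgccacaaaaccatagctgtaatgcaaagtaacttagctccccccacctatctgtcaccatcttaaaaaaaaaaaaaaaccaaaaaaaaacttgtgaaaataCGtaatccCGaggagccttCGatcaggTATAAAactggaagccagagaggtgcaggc
Ifngr1, chr10:19591699-19591948: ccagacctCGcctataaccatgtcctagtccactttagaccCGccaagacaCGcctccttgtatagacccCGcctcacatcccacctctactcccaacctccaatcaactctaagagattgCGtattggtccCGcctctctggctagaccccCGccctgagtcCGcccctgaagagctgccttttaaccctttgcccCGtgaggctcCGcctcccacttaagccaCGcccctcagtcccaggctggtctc
Ifngr2, chr16:91546809-91547058: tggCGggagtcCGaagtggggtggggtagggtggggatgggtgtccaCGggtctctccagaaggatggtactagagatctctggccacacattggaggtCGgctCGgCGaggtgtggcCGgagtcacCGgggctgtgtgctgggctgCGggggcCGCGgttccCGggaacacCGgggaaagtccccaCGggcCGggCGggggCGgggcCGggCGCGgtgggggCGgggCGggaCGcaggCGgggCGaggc
The Ifng window held 6 CG dinucleotides, equal to the median of 32851 promoter windows of the same length, and a GC content of 45.2%. It was the only one of the 5 with TATAAA, searched on both strands, which lay 30 bases before the start and is present in 12.4% of all windows. The Ifngr1 window held 11 CG dinucleotides, and the Ifngr2 window held 25, a number that 90.4% of windows did not exceed. The motif TTCNNNGAA, which reads the same on both strands, occurred 1 time in the Ifng and Ifnar2 windows, and in 7.02% of all windows. These matches describe letters in the windows only.

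There were 7476 barcodes with 43977988 unique molecular identifiers (UMIs, each standing for 1 captured transcript) for PyMT-M, and 5020 with 14907736 for PyMT-N. After removal of poor cells and likely doublets, 6916 and 4792 cells were left. Median depth per barcode was 5069.5 and 1955 UMIs, in that order, so raw shares of cells with a transcript cannot be set side by side. Classes were set by marker UMIs, with no member among the 97 markers, and covered 95.7% and 93.4% of cells. Macrophages led in PyMT-M (5153 of its cells, against 727 in PyMT-N) and neutrophils in PyMT-N (3215, against 48 in PyMT-M). T cells numbered 588 and 162, NK cells 422 and 33, monocytes 158 and 242, B cells 51 and 56, and dendritic cells 51 and 17. The libraries shared 60 cell barcodes. The CD45 gene Ptprc was detected in the immune classes, was 5.50 and 10.1 CPM in the 123 and 11 epithelial cells that passed the sort, and was not detected in the 16 and 5 stromal cells. Levels are given as UMIs per 1000000 UMIs of the class (CPM), and UMIs are not divided by gene length because each molecule is counted 1 time.

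Ifng transcripts lay mainly in T and NK cells in both tumours, and none were found in neutrophils, monocytes, B cells or dendritic cells. In PyMT-M, 268 Ifng UMIs fell in 173 cells. T cells held 146 of them (54.5%, 48.3% to 60.5%, Clopper-Pearson) and NK cells held 90 (33.6%), which makes 88.1% (83.6% to 91.7%) together. Among the T cells, those with CD8 markers held 102 UMIs. In PyMT-N, 51 Ifng UMIs fell in 24 cells, with 16 in T cells (31.4%) and 21 in NK cells (41.2%). Together this was 72.5% (58.3% to 84.1%), on few counts. The neutrophils, the most numerous cells of PyMT-N, had 0 Ifng UMIs in 3215 cells, which allows a share with a UMI of up to 0.0933% of cells and a level of up to 0.464 CPM at a floor of 3 counts. The 48 neutrophils of PyMT-M also had none, where the floor is 29.1 CPM.

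**Figure D1:**
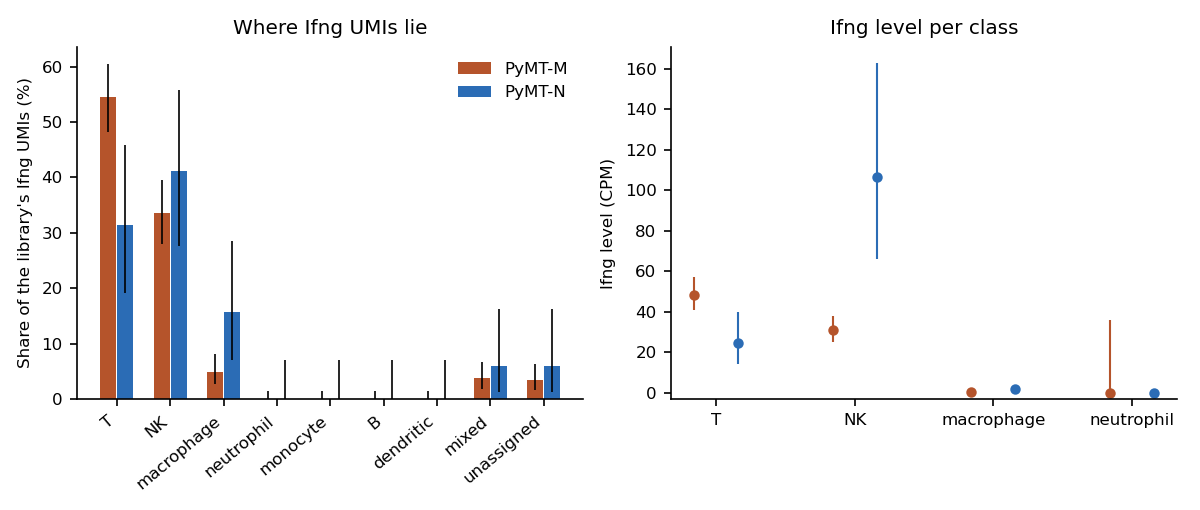
Left, share of each library's Ifng UMIs (percent) held by each cell class, as bars with Clopper-Pearson intervals. Right, Ifng level (CPM) in 4 classes, as points with Poisson intervals. T and NK cells hold 88.1% of the Ifng UMIs of PyMT-M and 72.5% of those of PyMT-N, and NK cells of PyMT-N stand highest at 106 CPM.

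Most of the Ifng UMIs found outside the T and NK classes were in cells that also carried lymphocyte markers. In PyMT-M, 13 macrophage-class cells held 1 Ifng UMI each, and 12 of them also held a T or NK marker UMI, against 172 of all 5153 macrophages (3.34%). In PyMT-N, a single macrophage-class cell with 14965 UMIs held 8 Ifng UMIs together with 3 T marker and 15 NK marker UMIs. When cells with at least 3 markers of a second class were left out, macrophages held 3 Ifng UMIs in 4844 cells of PyMT-M. They held 0 in 568 cells of PyMT-N. Cells with fewer markers of a second class stayed in. The remaining Ifng UMIs of both libraries were in cells of mixed or no class, and each of those cells also had a T or NK marker UMI. Cells removed as doublets held a further 49 Ifng UMIs for PyMT-M and 0 for PyMT-N.

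The Ifng level of T and NK cells pooled did not differ between the tumours beyond counting error, while the 2 classes stood in the opposite order. T cells had 48.4 CPM (40.9 to 57.0) in PyMT-M and 24.6 CPM (14.0 to 39.9) in PyMT-N. NK cells had 31.0 CPM (24.9 to 38.1) in PyMT-M and 106 CPM (65.8 to 162) in PyMT-N. The intervals of each class did not overlap between tumours. T cells with CD8 markers were 360 of the 588 T cells of PyMT-M and 25 of the 162 T cells of PyMT-N. The part of this subset mix in the T cell values was not tested. On the log2 scale PyMT-N over PyMT-M was -0.98 (-1.82 to -0.23) in T cells and 1.78 (1.02 to 2.48) in NK cells, and 0.13 (-0.41 to 0.63) over both. A gene was called different when it differed at least 2-fold with the nearer end of its interval beyond 1.5-fold. Ifng passed this in NK cells, where 1.76% of 8060 measured genes were called higher in PyMT-N, and it did not pass in T cells, where 2.69% were called lower. NK cells exceeded T cells in PyMT-N by a log2 difference of 2.11 (1.11 to 3.15, called, where 1.8% of genes were), and stood at -0.64 (-1.04 to -0.26) in PyMT-M, not called, where 3.86% were called lower. The NK value of PyMT-N rests on 21 UMIs in 10 of 33 cells of 1 library.

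With depths made equal, the shares of cells with an Ifng UMI were close in T and NK cells of PyMT-M and higher in NK than in T cells of PyMT-N. Cells were thinned to 1000 UMIs and shallower ones left out (1 T and 5 NK cells of PyMT-M, 4 T cells of PyMT-N). An Ifng UMI was then found in 3.92% (2.50% to 5.82%) of T cells and 3.84% (2.21% to 6.16%) of NK cells of PyMT-M. In PyMT-N the shares were 1.27% (0.154% to 4.50%) of T cells and 21.2% (8.98% to 38.9%) of NK cells. Without thinning they were 15% and 14% in PyMT-M, and 4.94% and 30.3% in PyMT-N. Thinned macrophages of PyMT-M had an Ifng UMI in 2 of 4917 cells (0.0407%, 0.00493% to 0.147%). Whether these UMIs are background was not tested. Within T cells, CD8-type cells of PyMT-M had 56.6 CPM (46.1 to 68.7), gamma-delta-type cells 26.7 CPM from 10 UMIs, and regulatory T cells none in 7 cells. In PyMT-N, 25 CD8-type cells held 2 Ifng UMIs, and most of the T cell Ifng (12 UMIs) was in cells with no leading subset. Ifng counts per cell were low, with at most 5 in a T or NK cell of PyMT-M and at most 6 in PyMT-N.

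T and NK cells that carried Ifng carried more of some effector transcripts and less of others. In PyMT-M, 147 positive and 863 negative cells had median depths of 5293 and 5148 UMIs, and Ccl3, a chemokine of activated lymphocytes, was 240.5 CPM against 75.5 (log2 1.67, 1.42 to 1.92). Prf1, which codes for the pore-forming protein perforin, was 130.1 CPM against 60.1 (1.11, 0.79 to 1.43). Both were called higher, where 0.139% of 9333 genes were. Il17a, the cytokine of another T cell programme, had 0 UMIs in the positive cells and 171 in the negative ones, and was called lower, where 0.343% of genes were. Gzmb, which codes for granzyme B, stood at -0.39 (-0.46 to -0.33), not called, and at -0.24 in NK cells and -0.76 in CD8-type T cells. Of the 9 measured genes of this list of other products, 2 were called higher and 1 lower. In T and NK cells of PyMT-N, with 18 positive cells, Gzmb stood at 1.74 (1.56 to 1.93), where the median depths were 7256 and 3131 UMIs. NK cells were 10 of these 18 positive cells and 23 of the 177 negative ones. Within NK cells of PyMT-N, Gzmb stood at 0.77 (0.53 to 1.01), not called. The part of this mix in the pooled value was not tested. The split differed between cell types. In NK cells of PyMT-M, Ccl3 (1.77), Prf1 (1.23), the receptor gene Il18r1 (1.86) and the transcription factor gene Eomes (1.09) were called higher in positive cells, where 0.556% of genes were called higher and 0.291% lower, and Xcl1 stood at -0.07. In CD8-type T cells of PyMT-M, Ccl3 (1.59) and Ccl4 (1.56) were called higher, where 0.149% of genes were, while Xcl1, a chemokine for cross-presenting dendritic cells, was called lower (-1.61, -2.05 to -1.20), where 0.253% were. A difference between the 2 cell types was not tested. In PyMT-N, the 10 positive NK cells had more Xcl1 than the 23 negative ones (1.12, 0.82 to 1.44, called, where 4.42% of genes were called higher and 0.321% lower). Their median depths were 9501 and 3967 UMIs, and the part of depth in this difference was not tested. No receptor chain was called different between positive and negative cells in these comparisons.

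**Figure D2:**
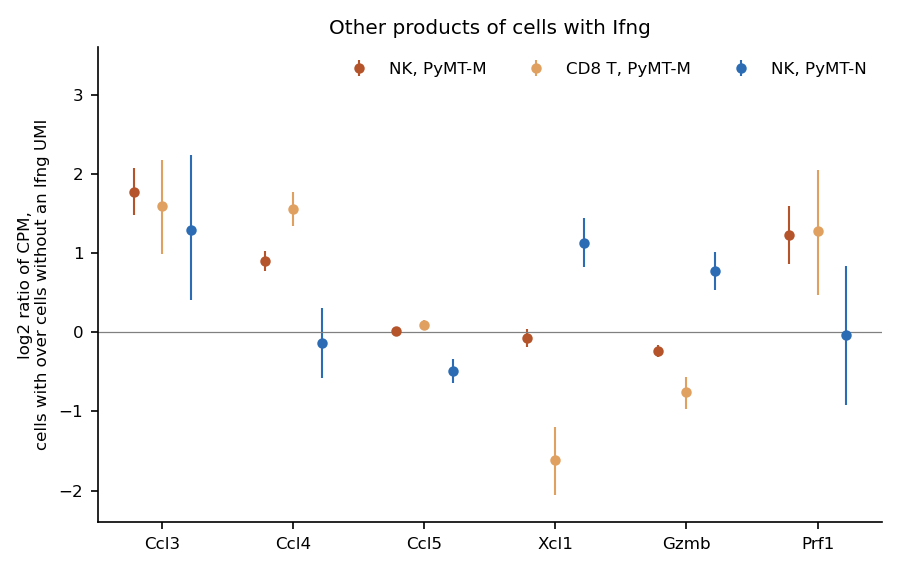
Log2 ratio of CPM between cells with and without an Ifng UMI (y axis) for 6 effector genes, in NK and CD8-type T cells of PyMT-M and NK cells of PyMT-N, as points with counting intervals. Ccl3 lies above 0 in all 3 sets, and Xcl1 lies at -1.61 in CD8-type T cells, near 0 in NK cells of PyMT-M and at 1.12 in NK cells of PyMT-N.

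Ifngr1 was broadly expressed, and was highest among the large classes in monocytes of both tumours. Monocytes had 633 CPM (584 to 685) in PyMT-M and 493 CPM (458 to 530.3) in PyMT-N. Macrophages had 290.3 and 207 CPM, T cells 290.3 and 388 CPM, and NK cells 199 and 268 CPM. Neutrophils had 262 CPM (173 to 381) in PyMT-M and 248 CPM (236 to 261) in PyMT-N. Macrophages, T cells and dendritic cells of PyMT-M had overlapping intervals, while the order monocyte, T cell, neutrophil, macrophage held in PyMT-N without overlap between neighbours. Monocytes exceeded macrophages by a log2 difference of 1.12 (PyMT-M) and 1.25 (PyMT-N), and both were called, where 4.86% and 3.56% of genes were called higher. B cells had 124 CPM (66.2 to 213) from 13 UMIs in PyMT-M, an interval that overlapped that of NK cells. In PyMT-N they had 18.8 CPM from 2 UMIs. The highest Ifngr1 of all was in the few regulatory T cells, at 1184 CPM (742 to 1792) in 7 cells of PyMT-M and 936 CPM (713 to 1207) in 22 cells of PyMT-N. Against other T cells this was a log2 difference of 2.06 (1.37 to 2.66) and 1.51 (1.06 to 1.93), called in both. There 2.04% and 3.83% of genes were called higher, and the median of all genes was 0.83 and 0.14. The PyMT-M value rests on 22 UMIs in 5 of the 7 cells.

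Ifngr2 separated myeloid cells from T and NK cells. It was 316 CPM (309 to 322) in macrophages, 295 in monocytes and 146 (81.4 to 240.0) in neutrophils of PyMT-M. The values in PyMT-N were 121 CPM (110.1 to 132) in macrophages, 152 in monocytes and 145 (136 to 154) in neutrophils. T cells had 10.9 CPM (7.54 to 15.4) in PyMT-M and 29.2 (17.6 to 45.5) in PyMT-N. NK cells had 3.1 CPM from 9 UMIs and 5.06 CPM from 1 UMI. With cells carrying at least 3 markers of a second class left out, NK cells had 0.813 CPM from 2 UMIs and 0 UMIs. Macrophages exceeded T and NK cells pooled 44.5-fold (PyMT-M) and 5.12-fold (PyMT-N), and neutrophils did so 20.5-fold and 6.14-fold. All 4 differences were called. The share of genes called higher in macrophages than in T and NK cells was 21.1% (PyMT-M) and 13% (PyMT-N), and in neutrophils it was 7.07% and 15.5%. In T and NK cells of PyMT-M, the amount of macrophage RNA estimated from C1qa, C1qb and C1qc was 0.679% and 0.581% of their UMIs. That amount alone would bring 2.14 CPM of Ifngr2 to T cells, beside the measured 10.9 CPM. To NK cells it would bring 1.84 CPM, a value within the interval of the measured 3.1 CPM (1.42 to 5.88). In PyMT-N T cells the same estimate gives 0.151 CPM from macrophages and 0.398 CPM from neutrophils, beside the measured 29.2 CPM. The part of such RNA in the Ifngr2 levels of T and NK cells was not tested. B cells, which are lymphocytes, had 153 CPM of Ifngr2 in PyMT-M from 16 UMIs and 28.2 CPM in PyMT-N from 3 UMIs.

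**Figure D3:**
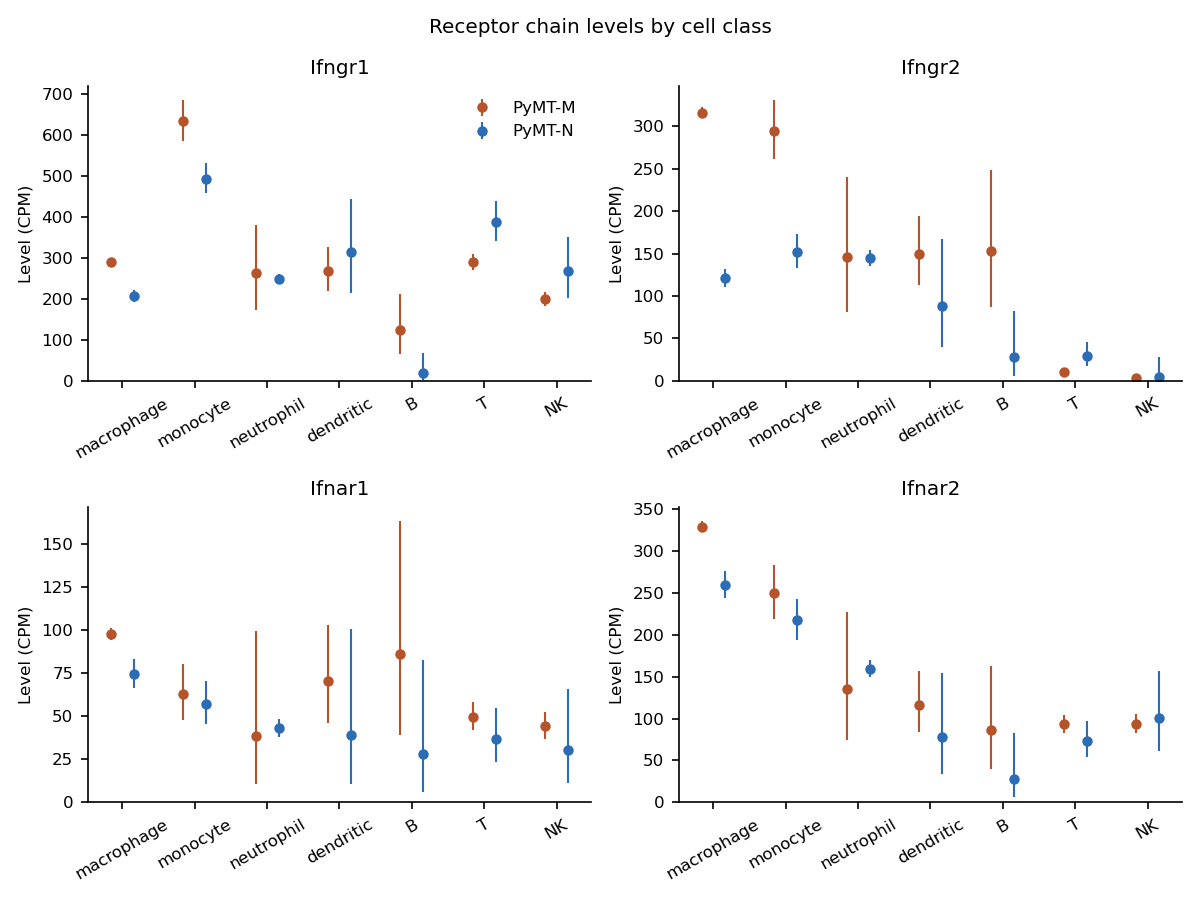
Level (CPM, linear axes) of each receptor chain in 7 cell classes of both tumours, as points with Poisson intervals. Ifngr1 is highest in monocytes and is present in T and NK cells, whereas Ifngr2 is 10.9 CPM in T cells and 3.1 CPM in NK cells of PyMT-M.

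The balance of the 2 chains of the gamma receptor differed by class far more than that of the type I receptor. For every 100 Ifngr1 UMIs, macrophages had 109 Ifngr2 UMIs if from PyMT-M and 58.3 if from PyMT-N. Monocytes had 46.6 and 30.9, and neutrophils 55.6 and 58.2. T cells had 3.77 and 7.51, and NK cells 1.56 and 1.89. On the log2 scale the T cell ratio was -4.73 (-5.28 to -4.23) in PyMT-M and -3.74 (-4.49 to -3.06) in PyMT-N, against 0.12 (0.08 to 0.16) and -0.78 (-0.94 to -0.61) in macrophages. The intervals of T cells and macrophages did not overlap in either tumour.

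**Figure D4:**
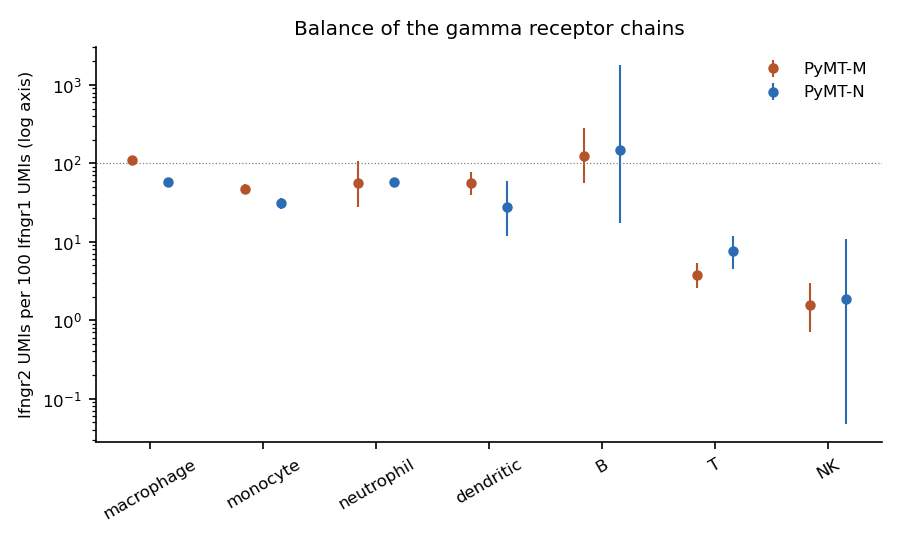
Ifngr2 UMIs per 100 Ifngr1 UMIs (log axis) in 7 classes, as points with counting intervals, with a dotted line at 100. Macrophages of PyMT-M lie at 109, T cells at 3.77 and 7.51, and NK cells at 1.56 and 1.89.

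In PyMT-M both gamma receptor chains were seen in the same cell more often in macrophages and monocytes than in T and NK cells. With cells thinned to 1000 UMIs, and the shallower ones left out (236 and 35 macrophages, 182 neutrophils of PyMT-N), both chains were detected in 6.96% (6.26% to 7.70%) of macrophages of PyMT-M and 1.88% (1.00% to 3.19%) of those of PyMT-N. Monocytes had both in 12.1% (7.45% to 18.3%) and 3.75% (1.73% to 7.0%) of cells, and neutrophils of PyMT-N in 2.60% (2.07% to 3.24%). The 43 neutrophils and 51 dendritic cells of PyMT-M deep enough for this had both in 0 cells, with upper ends of 8.22% and 6.98%. T and NK cells together had both in 0.398% (0.109% to 1.02%) of cells of PyMT-M and 0.524% (0.0133% to 2.88%) of those of PyMT-N, or 4 and 1 cells, and in PyMT-N this interval overlapped that of macrophages. These shares are limited by depth, since without thinning 54.5% of PyMT-M macrophages, 29.4% of PyMT-N macrophages, 9.86% of PyMT-N neutrophils and 2.67% of PyMT-M T and NK cells had both. The product of the separate chain shares was 6.70% and 1.77% in the thinned macrophages, close to the shares seen.

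Ifnar1 and Ifnar2, the chains of the type I receptor, were detected in every class but the 4 mast cells or basophils of PyMT-N, and stood highest, among the large classes, in macrophages. Ifnar1 was 97.7 CPM (94.1 to 101) in macrophages of PyMT-M and 74.6 CPM (66.3 to 83.6) in those of PyMT-N. Both intervals overlapped that of the next class, B cells in PyMT-M (86.1 CPM, 39.4 to 163) and monocytes in PyMT-N (56.9 CPM). Neutrophils had 38.8 CPM (10.6 to 99.4) and 43.0 CPM (38.1 to 48.3), T cells 49.4 and 36.8 CPM, and NK cells 44.4 and 30.4 CPM. Ifnar2 was 329 CPM (323 to 336) and 260.0 CPM (244 to 276) in macrophages, 249.7 and 217 CPM in monocytes, and 136 and 160 CPM in neutrophils. T cells had 93.2 and 73.7 CPM of Ifnar2, and NK cells 93.6 and 101 CPM. Macrophages exceeded T and NK cells pooled in Ifnar2 by 3.52-fold in PyMT-M and 3.25-fold in PyMT-N, both called. In Ifnar1 they did so 2.08-fold in PyMT-M, called, and 2.11-fold in PyMT-N, not called. In this comparison 21.1% (PyMT-M) and 13% (PyMT-N) of genes were called higher. Ifnar2 UMIs outnumbered Ifnar1 UMIs by 337 and 349 to 100 in macrophages, 350.0 and 372 in neutrophils, 189 and 200 in T cells, and 211 and 333 in NK cells. The few plasmacytoid dendritic cells, 12 and 6, had the highest levels of both chains in PyMT-M, at 231 CPM of Ifnar1 from 16 UMIs and 677 CPM of Ifnar2 from 47 UMIs. Reads from the 5′ end do not tell the membrane and soluble forms of Ifnar2 apart.

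Between the tumours, Ifngr2 of macrophages was the receptor chain that differed by the call rule toward lower levels in PyMT-N. Its log2 ratio of PyMT-N over PyMT-M was -1.39 (-1.52 to -1.26), where 6.51% of 11897 genes were called lower and the median of all genes was -0.18. Ifngr1 was -0.49 (-0.59 to -0.39), Ifnar1 -0.39 (-0.57 to -0.22) and Ifnar2 -0.34 (-0.43 to -0.25) in macrophages, and none of these were called. In monocytes, where 1.59% of genes were called lower and 1.51% higher, Ifngr2 was -0.95 (-1.21 to -0.70), not called, and Ifngr1 was -0.36 (-0.52 to -0.20). In neutrophils all 4 intervals included 0, with Ifngr1 at -0.08 and Ifngr2 at -0.01, but PyMT-M gave only 48 neutrophils. In T and NK cells together, Ifngr2 was higher in PyMT-N (1.73, 0.88 to 2.53, called, where 3.04% of genes were called higher), from 42 and 20 UMIs, and Ifngr1 was 0.55 (0.37 to 0.73), not called. NK cells were 422 of the 1010 pooled cells of PyMT-M and 33 of the 195 of PyMT-N, and the part of this mix in the pooled values was not tested. In T cells alone Ifngr2 was 1.41 (0.52 to 2.27), not called, where 2.4% of genes were called higher. CD8-type cells, with 3.88 CPM of Ifngr2 from 7 UMIs in PyMT-M, made up a smaller part of the T cells in PyMT-N. The part of this subset mix in the T cell value was not tested. Of the macrophage clusters, 4 held cells of both tumours, with 1083 of the 5153 macrophages of PyMT-M and 542 of the 727 of PyMT-N. Within these clusters the Ifngr2 ratio was -0.90, -1.19, -1.13 and -0.96, with every interval below 0 and 2 of the 4 under 2-fold. With these clusters weighted as in PyMT-M the Ifngr2 ratio was -0.97, under 2-fold, so the call ends. Ifngr1 within them ran from -1.0 to 0.00 and Ifnar1 from -0.15 to 0.49. This comparison was added after the data were seen. The summed level of the 12 neutrophil markers in macrophages was 173 CPM in PyMT-M, with 1 marker at 0, and 938 CPM in PyMT-N, with 0 markers at 0, and its part in the macrophage ratios was not tested.

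**Figure D5:**
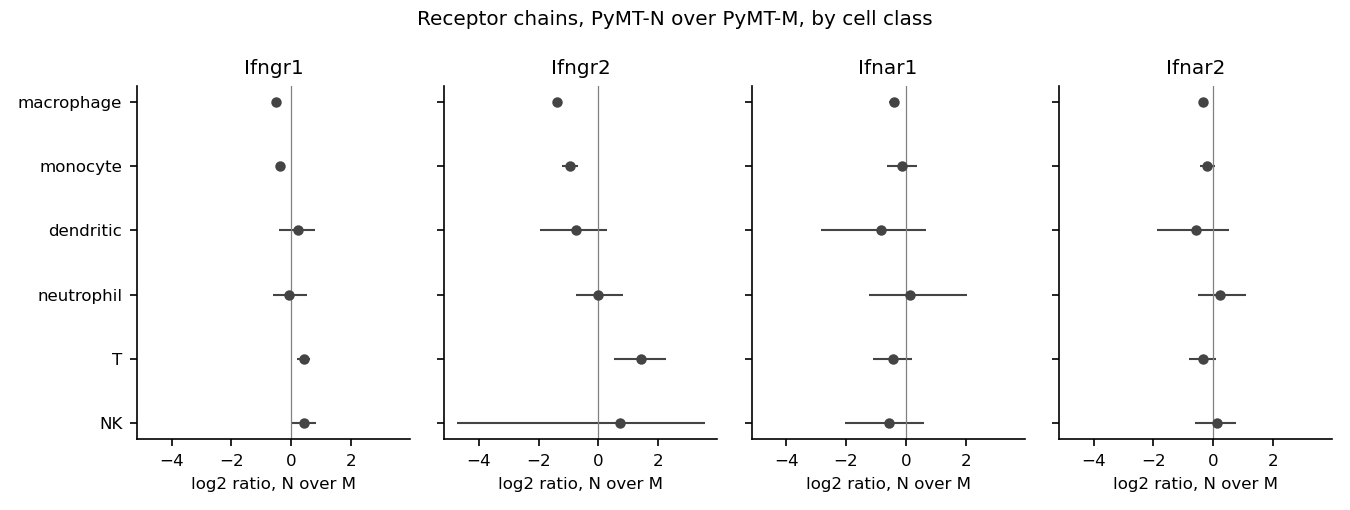
Log2 ratio of each receptor chain, PyMT-N over PyMT-M (x axis), in 6 cell classes, as points with counting intervals and a line at 0. Ifngr2 of macrophages lies at -1.39, while the 4 chains of neutrophils have intervals that include 0.

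Within the PyMT-N neutrophils, no receptor chain was called between cell states. The cells grouped by state markers gave 620 of a Retnlg-rich type and 1819 of a tumour type. Ifngr1 was 300.0 CPM in the first and 232 in the second (log2 0.37, 0.20 to 0.54), and Ifnar2 was 144 and 174 CPM (-0.27, -0.50 to -0.05). Ifngr2 was 147 and 141 CPM and Ifnar1 36.7 and 44.7 CPM, with intervals that included 0. None of the 4 were called, where 3.41% of genes were called higher and 19.5% lower, and the median of all genes was -0.63. Neutrophils with at least 5 of 1000 UMIs from type I response genes (232 cells) and those below (2801 cells) differed in Ifngr1 by -0.26, in Ifngr2 by 0.25, in Ifnar1 by -0.37 and in Ifnar2 by -0.17 on the log2 scale, and all 4 intervals included 0. Split instead at 2 of 1000 UMIs from gamma response genes (306 and 2727 cells, 26.7% of them near that limit), Ifnar2 stood at 0.50 (0.11 to 0.88) in the higher range, and the intervals of the other 3 chains included 0.

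Ligands for the type I receptor were hardly seen. Of 20 type I and type III interferon genes, Ifnb1, which codes for interferon beta, had 27 UMIs for PyMT-M and 2 for PyMT-N, all in macrophages, and Ifnz had 1 UMI. No other was detected. On a list of cytokines that induce Ifng and of the inhibitor Il18bp, macrophages of PyMT-N had 0 UMIs of Il12b, a subunit of interleukin 12, against 619 UMIs (21.5 CPM) in PyMT-M, at least 28.5-fold lower at a floor of 3 UMIs in the class. Il15 (-1.21), Il27 (-3.50) and Il18bp (-2.84), which codes for the secreted inhibitor of interleukin 18, were also called lower, so that 4 of the 6 measured members of this list were lower and none higher, where 6.51% and 3.72% of all genes were. The median of the 6 was -1.98 against -0.17 over all genes. In T and NK cells pooled, the interleukin 18 receptor genes Il18r1 (1.80) and Il18rap (1.88) were called higher in PyMT-N. The transcription factor gene Tbx21 (-1.46) and the receptor gene Il2rb (-1.22) were called lower. This was out of 11 measured, where 3.04% of all genes were called higher and 2.96% lower. NK cells made up a larger part of the pooled cells in PyMT-M, and the part of this mix in these values was not tested.

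Genes that respond to interferon gamma were called lower in macrophages in 11 of 17 measured cases and higher in 0, where 6.51% and 3.72% of all genes were, with a median of -1.09 against -0.17 over all genes. The T cell chemokine genes Cxcl9 (-4.14) and Cxcl10 (-2.63), the GTPase gene Iigp1 (-2.76) and the transcription factor gene Irf8 (-1.05) were among them. In monocytes 3 of 13 were called lower (median -0.39, all genes -0.12), and 1.59% of all genes were. In T and NK cells 6 of 15 were called lower (median -1.17, all genes -0.11), among them Cxcl10 (-2.91), Gbp3 (-2.83) and Irf1 (-1.94), where 2.96% of all genes were. Genes that respond to type I interferon were called lower in 17 of 19 cases in macrophages (median -1.85), such as Bst2 (-1.58), Irf7 (-1.83), Ifit3b (-3.43) and Ifit3 (-3.28), and in 12 of 19 in T and NK cells (median -1.77), 1 of 18 in monocytes and 3 of 17 in neutrophils. In neutrophils 2 of 11 gamma response genes were called lower and 1 higher, where 2.75% and 1.07% of all genes were. The gene called higher was Nos2, with 737 UMIs in PyMT-N and 0 in PyMT-M. These came from neutrophil totals of 6471134 UMIs in PyMT-N and 103077 UMIs in PyMT-M, where the floor is 29.1 CPM. The negative regulator genes Socs1 (-1.25), Socs3 (-2.27) and Usp18 (-1.87) were lower in macrophages, 3 of 7 on that list. Socs1 is also on the gamma response list and Usp18 on the type I response list, so these lists are not separate. Many of these genes respond to both kinds of interferon, and the part of either kind was not tested. The part of the T and NK mix in the pooled T and NK values was not tested either.

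The genes whose levels followed each member most closely were ranked by the Pearson correlation of log2(CPM + 10) over 12 units of class and library with at least 50 cells, as a description. The units share 2 libraries and their depths. Ifng had no UMIs in the monocyte, dendritic, B, epithelial and neutrophil units, so its correlations, also that with Ifngr2, rest mainly on the T and NK units. For Ifng the closest of 9904 genes were Cd160, an NK and T cell receptor gene (r = 0.996), Gm20069, Rgs16, Cd27 and Tox (0.990). For Ifngr1 they were Ripk1 (0.924), Glipr1, 1110034G24Rik, Tnfrsf1b and Glud1 (0.889). For Ifngr2 they were Zfp36 (0.944), Prkcd, Fos and Skap2 (0.910). Ifnar1 was followed by Plagl2 (0.979), Cyp4v3, Fam219a, Plcb2 and Camta2 (0.897), and Ifnar2 by Vps26a (0.964), Usp8, Rab5c, Creg1 and Hexa (0.928). Among the members, Ifng and Ifngr2 had r = -0.825, and the chains of the gamma receptor had r = 0.269 with each other, against 0.625 for those of the type I receptor.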

How the data were processed

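The submitters deposited, for each tumour line, 1 table of UMI counts by gene and barcode, and these deposited counts were not normalized. Per the file headers the tables come from software version 3.1.0, and per the submitters' processing notes Cell Ranger, Seurat and the build mm10 were used, with the annotation release not given in the sources used here. Barcodes with fewer than 200 genes or over 10% mitochondrial UMIs were left out. Doublets were called with Scrublet in scanpy 1.11.5. Its automatic threshold marked 0 barcodes, so the highest scores were removed at 0.8% per 1000 barcodes (447 and 202). A cell took the class with the largest share of its markers detected, needing 3 markers and a lead of 0.1. Cells with too few markers were unassigned (196 and 236), and those without the lead were mixed (98 and 78 cells). No lead was required between T and NK cells or between monocytes and macrophages. The same held for B and plasma cells, and for dendritic and plasmacytoid dendritic cells. The markers were fixed at the outset and the rule for the lead was set after marker detection had been seen. Where several identifiers had 1 symbol, their counts were added, and 2 list symbols were not in the files.

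UMIs were summed per class and library and given as CPM with exact Poisson intervals, shares with Clopper-Pearson intervals, and ratios with exact conditional binomial intervals, all at 95%. With 1 library per line no test was made. A ratio was called at 2-fold or more with the nearer interval end beyond 1.5-fold and at least 20 UMIs, and the medians of gene lists used a pseudocount of 1 CPM. Lists were described by counts and medians. List members were named by the highest CPM and the largest ratio, with called members of small lists added after their values were seen. The members and lists were chosen with earlier results of these data known, and response ranges, neutrophil states, cells with Ifng and shared clusters were compared after seeing the data. The interval and call scripts were tested on simulated data, and 14 alternatives were tried. Values were computed with Python 3.11.15, numpy 2.4.6 and scipy 1.17.1. Gene positions were matched by identifier for 30934 of 31053 genes, and all 5 members had a RefSeq promoter window. Some genes of the lists and rankings are not reported here.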

Additional observations from a re-analysis of the deposited data

Results flagged for a closer look

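Some members differed between the tumours in opposite directions in different cell classes, with counting intervals that did not include 0, and with 1 library per line the difference between classes was not tested. Ifng, as log2 of PyMT-N over PyMT-M, was 1.78 in NK cells and -0.98 in T cells. It was 2.16 in macrophages, from 13 UMIs in PyMT-M and 8 UMIs in a single cell of PyMT-N. Ifngr1 was 0.42 in T cells, against -0.49 in macrophages, -0.36 in monocytes and -2.72 in B cells, where the B cell value rests on 13 and 2 UMIs and the monocyte value turned to 0.035 with classes from clusters. Ifngr2 was 1.41 in T cells, against -1.39 in macrophages, -0.95 in monocytes and -2.44 in B cells, where the B cell value rests on 16 and 3 UMIs. The lower Ifngr2 of macrophages was present in each of the 4 clusters that held cells of both tumours. CD8-type cells made up a smaller part of the T cells in PyMT-N, and the part of this mix in the T cell values was not tested.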

How the results depend on the processing

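No paired analysis was possible because there was 1 library per line, and no library could be left out. For PyMT-M, the share of Ifng UMIs in T and NK cells was 75.7% with doublets kept and 75.7% with strict classes. It was 96.6% with classes from clusters. Under strict classes, cells with at least 3 markers of a second class get no class, but their UMIs stay in the total. Of the UMIs in strictly classed cells alone the share was 98.5%, and 100% in PyMT-N. The share of PyMT-N was 100% with clusters and 86.0% without the cell of 8 Ifng UMIs, a setting added after seeing the data. In macrophages the log2 ratio of Ifngr1 was -0.60 with strict classes, -0.69 with clusters, -0.35 with median-ratio scaling, -0.35 with totals free of mitochondrial, ribosomal and marker genes, and -0.32 when the clusters holding both tumours were weighted as in PyMT-M, also added later. Under the last 3 of these settings Ifngr2 was -1.25, -1.25 and -0.97, and Ifnar2 was -0.20, -0.20 and -0.24. Ifnar1 turned to 0.31 with the cluster weights. Monocyte Ifngr1 was -0.15 with strict classes, which left 35 and 47 monocytes, -0.20 with median-ratio scaling and turned to 0.035 with clusters, and monocyte Ifngr2 was -1.23 with strict classes. The cause of these shifts was not tested. Shares of cells with both chains follow depth by construction. Thinned to 500 UMIs and not thinned, the gamma receptor shares were 2.23% and 54.5% in PyMT-M macrophages, 0.413% and 29.4% in PyMT-N macrophages, 0.840% and 9.86% in PyMT-N neutrophils, and 0% and 2.67% in PyMT-M T and NK cells. The type I receptor shares were 1.05% and 30.4%, 0.825% and 23.5%, 0.124% and 2.86%, and, not thinned, 9.90% in the same order. The gamma response median of neutrophils was -0.086 with genes of 1 UMI admitted, against -0.88, and the cause was not tested. With log2(CPM + 1), 3 of the 5 genes most like each member were shared. Of all alternative values, 126 stayed within the limits set, 40 moved and 2 reversed. The NK cells of PyMT-N (33) and the neutrophils of PyMT-M (48) are few, which limits the results that rest on them.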
